A study of Mus musculus with 15 samples.

Results

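Gene expression in intracranial GL261 tumors was compared with that in naïve mouse brain, gene by gene, over the 3 GL261 libraries and the 3 naïve libraries of a series of 15. The samples were chosen by their labels and by no measured value, and all 46679 genes in the files entered, of which 17481 had enough counts to be tested. All mice were C57BL/6. Tumor-bearing mice were 6 to 8 weeks old when 100000 GL261 cells, engineered to express GFP and firefly luciferase, were implanted in the right hemisphere, and tissue was taken at humane endpoint after perfusion with PBS. GL261 is a line induced with methylcholanthrene in the same strain and carries mutant p53. The naïve group is labelled as control brain tissue and carries the same protocol text, with mice of 6 to 8 weeks and PBS perfusion, while its age at harvest and the region sampled are not given in the sources used here. The remaining 9 libraries, of mice with CT2A, 005 or Mut3 tumors, entered the fit to estimate the spread and are used below to see which GL261 values the other tumors share. CT2A and 005 mice also received 100000 cells, whereas Mut3 mice received 500000. CT2A is chemically induced like GL261, while 005 and Mut3 derive from genetically engineered mice. Effects of cell number and of origin were not tested. Each group comprised 3 mice, with 1 library per mouse. No label names a sequencing batch.

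A glioma that grows in brain brings its own cells, which divide and carry the program of the transformed lineage, and it displaces neurons and glia while microglia react and blood-borne monocytes and lymphocytes enter. Interferon-gamma from T and NK cells acts through IRF1 and other factors to switch on guanylate binding proteins, immunity-related GTPases, the immunoproteasome and MHC molecules, and type I interferons act through STAT2 and IRF9 on an overlapping set. RNA from whole tissue mixes all of these cells. In such bulk samples, fewer cells of a type and less RNA per cell cannot be told apart.

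Levels are given as CPM, the estimated count of a gene scaled to the size of its library after TMM normalization, in the order of replicates 1, 2 and 3. Differences are given as the log2 fold change of GL261 over naïve brain ± its standard error. A gene was called when the quasi-likelihood test of edgeR gave a Benjamini-Hochberg adjusted p under 0.05 over all tested genes and the change was at least 2-fold. Total counts ran from 3105119 to 5161132 in naïve brain and from 5380395 to 7244155 in GL261, so that 3 counts, the least taken as detected, stand for 0.364 to 0.811 CPM. This floor allows for counting error alone. The mitochondrially encoded share of counts was 15% to 24% in naïve brain and 4.33%, 11.3% and 5.88% in the GL261 libraries. Log2 CPM correlated across genes at r = 0.892 to 0.935 among the naïve libraries, 0.916 to 0.936 among the GL261 libraries and 0.681 to 0.827 between the groups. Replicates were thus distinct libraries that resembled each other more than the other group. The third 005 library lay as near to naïve brain (r = 0.904 to 0.919), and counts that it moved by more than 1.5 times are given without it as well. The labels of tumor and naïve brain held against defining markers. These markers were not used to tell GL261 from the other tumors. The proliferation gene Mki67 was at 3.06, 2.24 and 1.89 CPM in naïve brain and at 34, 37.7 and 54.7 CPM in GL261. The synaptic gene Snap25 was at 2369, 1810.0 and 3349.5 CPM in naïve brain and 356, 904 and 477 CPM in GL261. Mki67 did not overlap between the groups, and Snap25 remained well above the floor in every GL261 library.

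Of the 17481 genes, 2555 (14.6%) rose and 1358 (7.77%) fell in GL261. All 3 GL261 libraries lay above all 3 naïve libraries for 23.7% of genes and below them for 24.1%. The median log2 fold change of all genes was -0.08. Gained genes were 65.3% of the calls. This share moved both ways with the processing. It was lower with no filter on low counts (60.1%), with DESeq2 (56.0%), when only the 6 libraries were fitted (55.5%), without the third 005 library (50.6%) and when every sample had to hold 10 counts (50.5%). It was 23.4% on the TPM values, where the median gene sat at -0.51. It was higher with library size scaling (66.8%), with the replicate block (70.4%) and without each of the 6 libraries in turn (70.1% to 92.8%, the highest without GL261 replicate 1). Without the third 005 library, 2734 genes fell in place of 1358. The bars of calls per gene list show how the 46 lists of markers and pathways divided. Counts of called list members below are to be read against the 14.6% and 7.77% of all genes. Counts of members without overlap between GL261 and naïve brain are to be read against the 23.7% above and 24.1% below.

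**Figure D1:**
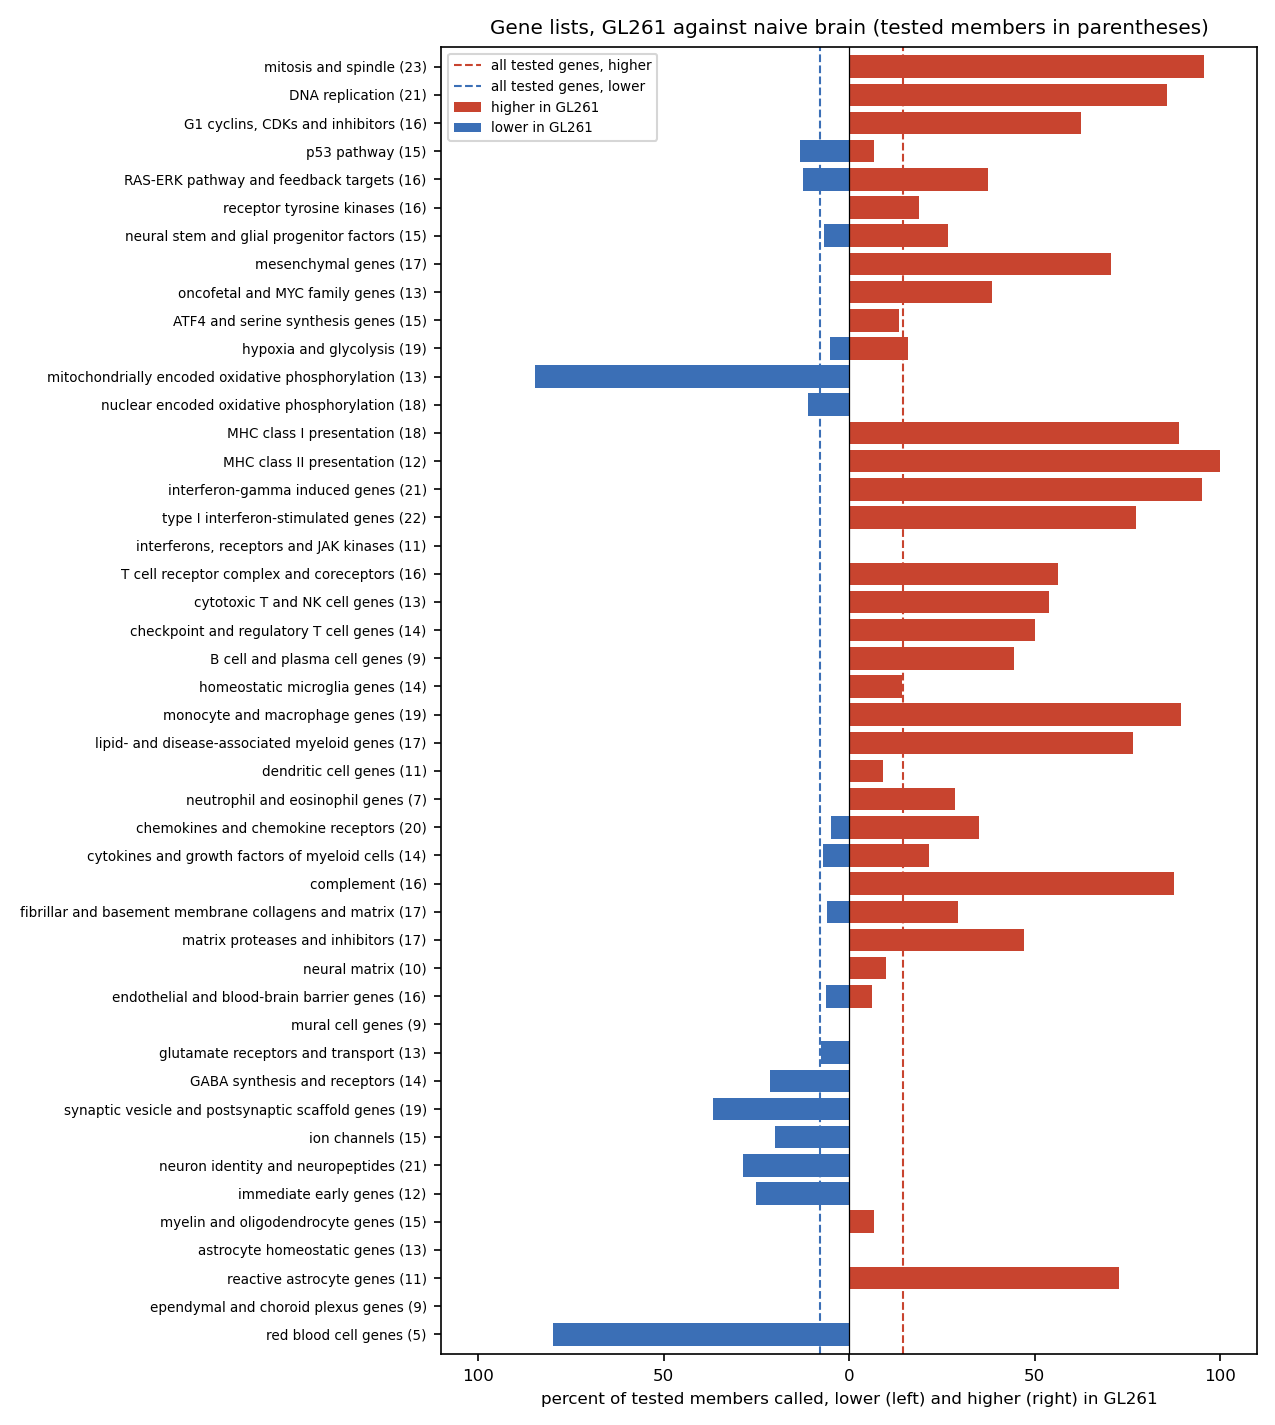
Percent of the tested members of each gene list that were called, for GL261 against naïve brain. The horizontal axis gives the percent, with bars to the right for members that rose and to the left for members that fell, and the vertical axis gives the lists with their number of tested members. The dashed lines mark the 14.6% and 7.77% of all genes that rose and fell. All 12 MHC class II genes, 20 of 21 interferon-gamma induced genes and 22 of 23 mitosis genes rose, whereas bars to the left are long for mitochondrially encoded genes, red blood cell genes and neuronal lists.

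Genes of cell division rose. Of 23 mitosis and spindle genes, 22 rose and none fell, against 14.6% of all genes, and all 23 had every GL261 library above every naïve library. Nusap1, which bundles spindle microtubules, was at 1.02, 0.747 and 3.52 CPM in naïve brain and 149, 155 and 160.0 CPM in GL261 (log2 fold change 6.48 ± 0.80, adjusted p = 0.000204). Prc1, a midzone microtubule crosslinker, was at 3.67, 3.24 and 5.95 CPM in naïve brain and 350.3, 364 and 279 CPM in GL261 (log2 fold change 6.27 ± 0.82, adjusted p = 0.000302). Cenpf, a kinetochore protein, stood at 6.53, 8.22 and 5.41 CPM in naïve brain and 397, 392 and 448 CPM in GL261 (log2 fold change 5.94 ± 0.81, adjusted p = 0.000412). For these genes the 3 GL261 libraries were close to one another and far from the naïve libraries. Top2a, the topoisomerase of dividing cells, went from 9.79, 8.97 and 13.5 CPM to 242, 213 and 285 CPM (log2 fold change 4.52 ± 0.64, adjusted p = 0.000473). Birc5, an inhibitor of apoptosis in the chromosomal passenger complex, went from 7.14, 9.96 and 9.46 CPM to 209, 154 and 153 CPM (log2 fold change 4.28 ± 0.63, adjusted p = 0.000542). Kif2c was the member that did not pass (2.05, adjusted p = 0.071), with levels of 6.22, 5.82 and 6.31 CPM in GL261. The call for Ttk was lost in 3 of the 6 fits without 1 library, adjusted p up to 0.0857. Of 21 DNA replication genes 18 rose. Among them were the thymidylate enzymes Tyms (log2 fold change 4.25 ± 0.62, adjusted p = 0.000508) and Tk1 (log2 fold change 4.81 ± 0.69, adjusted p = 0.000499). The 6 helicase subunits Mcm2 to Mcm7 rose by 2.23 to 3.47 on the log2 scale. Pcna, which was already at 101, 69.3 and 148 CPM in naïve brain and stood at 182, 180.4 and 164 CPM in GL261, was not called.

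The promoters of mitotic genes carry known elements. Those of Ccnb2 and Cdc20 are shown because both genes stood near the floor in naïve brain and rose in all 3 GL261 libraries. Ccnb2 (cyclin B2) was at 1.22, 1.25 and 1.08 CPM in naïve brain and 32.3, 28.3 and 21 CPM in GL261 (log2 fold change 4.5 ± 0.79, adjusted p = 0.00168). Cdc20, an activator of the anaphase-promoting complex, was at 1.43, 1.49 and 1.35 CPM in naïve brain and 47.7, 38.6 and 61.7 CPM in GL261 (log2 fold change 5.10 ± 0.68, adjusted p = 0.000356). The sequences are from RefSeq on GRCm38.p6 and run 5′ to 3′ on the strand of the gene, from 250 bases before to 50 bases after the annotated start. Capitals mark the CHR element (TTTGAA) and the CCAAT box (CCAAT) found on either strand. Ccnb2 is at chr9:70421505-70421804 on the minus strand and Cdc20 at chr4:118437294-118437593 on the minus strand.
Ccnb2: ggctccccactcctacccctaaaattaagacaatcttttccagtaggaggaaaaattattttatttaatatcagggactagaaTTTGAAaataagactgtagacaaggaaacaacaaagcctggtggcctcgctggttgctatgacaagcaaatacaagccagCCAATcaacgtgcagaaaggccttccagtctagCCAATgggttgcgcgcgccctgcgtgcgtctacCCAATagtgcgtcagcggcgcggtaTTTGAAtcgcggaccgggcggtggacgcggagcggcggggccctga
Cdc20: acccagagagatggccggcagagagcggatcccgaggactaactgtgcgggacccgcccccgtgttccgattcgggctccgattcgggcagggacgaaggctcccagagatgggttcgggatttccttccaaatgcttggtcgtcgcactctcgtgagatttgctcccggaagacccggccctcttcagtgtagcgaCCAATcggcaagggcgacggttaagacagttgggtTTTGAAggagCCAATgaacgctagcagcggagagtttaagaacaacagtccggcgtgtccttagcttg
The Ccnb2 window holds CCAAT boxes 87, 54 and 21 bases before the start and CHR letters 167 bases before and 4 bases after it, and the Cdc20 window holds a CHR element 18 bases before it and CCAAT boxes at 53 and 8 bases. Among 20 RefSeq promoters of 19 mitosis genes, 75.0% held the CHR letters and 80.0% held CCAAT, against 17.9% and 37.4% of all 32851 promoters of this length. Among 17 promoters of DNA replication genes the shares were 5.88% and 64.7%. A match of letters is a description and not a site of binding.

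Among the cyclins, kinases and inhibitors of G1, 10 of 16 rose and none fell. The D-type cyclin Ccnd1 was at 38.1, 30.9 and 41.1 CPM in naïve brain and 341, 332 and 312 CPM in GL261 (log2 fold change 3.16 ± 0.63, adjusted p = 0.00356). Its partners Cdk4 (log2 fold change 2.65 ± 0.54, adjusted p = 0.00399) and Cdk6 (log2 fold change 3.76 ± 0.57, adjusted p = 0.000693) rose too, and so did the relative Ccnd3 (log2 fold change 2.74 ± 0.42, adjusted p = 0.000774). The inhibitors did not fall. Cdkn2a, which encodes p16INK4a and ARF, had no count in any naïve library and 12, 4.85 and 11.3 CPM in GL261. This is at least 39.5-fold higher with 3 counts over the naïve group as the floor. Cdkn2b rose (log2 fold change 3.96 ± 0.84, adjusted p = 0.00502) and so did the retinoblastoma gene Rb1 (log2 fold change 1.80 ± 0.38, adjusted p = 0.00515). The p53 target Cdkn1a was called (log2 fold change 2.19 ± 0.72, adjusted p = 0.0416), but its call was lost in 5 of the 6 fits without 1 library, adjusted p up to 0.11. Of 15 p53 pathway genes, Trp53 itself rose, from 8.98, 13.9 and 9.19 CPM to 47.3, 26 and 34.5 CPM (log2 fold change 1.74 ± 0.34, adjusted p = 0.0031). Of the 2 that fell, the p53-induced RNA-binding gene Zmat3 was lower in GL261 (log2 fold change -1.66 ± 0.38, adjusted p = 0.00826, lost without GL261 replicate 1, adjusted p up to 0.0572). The remaining 12 were not called. Among them the p53 target Mdm2 was at 24.9, 24.7 and 27.3 CPM in naïve brain and 60.7, 35.4 and 39.8 CPM in GL261. Another target, Ccng1, was at 25.3, 34.9 and 18.1 CPM in naïve brain and 22.4, 24.4 and 30.3 CPM in GL261. The groups overlapped for Ccng1 but not for Mdm2.

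Of 16 genes of the RAS-ERK pathway, 6 rose and 2 fell. The RAS gene Hras was called lower (log2 fold change -1.81 ± 0.47, adjusted p = 0.0152, lost without GL261 replicate 1 or naïve replicate 2, adjusted p up to 0.0917), whereas Nras rose (log2 fold change 1.25 ± 0.31, adjusted p = 0.0131, lost without naïve replicate 1, adjusted p up to 0.0525). Feedback targets of ERK divided. Spry1 (log2 fold change 3.67 ± 0.66, adjusted p = 0.00194), the phosphatase Dusp6 (log2 fold change 1.95 ± 0.41, adjusted p = 0.00502) and Phlda1 (log2 fold change 1.85 ± 0.43, adjusted p = 0.00893) rose. By contrast, Spry4 (0.52), Dusp4 (-1.44), Dusp5 (-1.54), Etv1 (-0.51) and Etv5 (-0.31) were not called. The RAS-GAP gene Nf1 rose (log2 fold change 1.70 ± 0.37, adjusted p = 0.00592). Of 16 listed receptor tyrosine kinases, 3 rose, against 14.6% of all genes, and none fell, or 2 fell without the third 005 library. Another receptor of this family, Erbb4, was not in the list and was called lower (log2 fold change -4.65, adjusted p = 0.0376), as described below. Erbb3, a neuregulin receptor, was at 1.84, 7.22 and 4.33 CPM in naïve brain and 87.7, 44.4 and 111 CPM in GL261 (log2 fold change 4.19 ± 0.62, adjusted p = 0.000553). Axl, the GAS6 receptor, was at 8.36, 14.9 and 5.14 CPM in naïve brain and 47.9, 44.8 and 59 CPM in GL261 (log2 fold change 2.41 ± 0.48, adjusted p = 0.00374). Met was called as well (log2 fold change 2.53 ± 0.80, adjusted p = 0.0353, lost in 4 of the 6 fits without 1 library, adjusted p up to 0.112). Egfr and Pdgfra, which are commonly amplified in human glioblastoma, were not called. Egfr was at 6.73, 7.72 and 1.35 CPM in naïve brain and 1.87, 1.45 and 4.25 CPM in GL261, and Pdgfra was at 16.9, 21.7 and 13.8 CPM in naïve brain and 17.2, 28.1 and 21.2 CPM in GL261.

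The mesenchymal list gave 12 of 17 members up and none down. Vim (vimentin) was at 31.4, 53.6 and 31.4 CPM in naïve brain and 776, 706 and 785 CPM in GL261 (log2 fold change 4.28 ± 0.61, adjusted p = 0.000478). Prrx1, a homeobox factor of mesenchyme, was at 5.92, 6.97 and 10.5 CPM in naïve brain and 177, 125 and 129 CPM in GL261 (log2 fold change 4.2 ± 0.56, adjusted p = 0.000334). Lgals1 (galectin-1) went from 313, 361 and 332 CPM to 6417, 4788 and 4063 CPM (log2 fold change 3.92 ± 0.62, adjusted p = 0.000873). Anxa1, a phospholipid-binding annexin, went from 23.3, 16.7 and 25.4 CPM to 547, 295 and 271 CPM (log2 fold change 4.09 ± 0.85, adjusted p = 0.00456). No GL261 library overlapped a naïve library for these genes. Cd44 (log2 fold change 3.21 ± 0.52, adjusted p = 0.00107) and Runx1 (log2 fold change 3.28 ± 0.61, adjusted p = 0.00241) rose too. The classic inducers of epithelial-mesenchymal transition were mixed. Twist1 rose (log2 fold change 2.24 ± 0.61, adjusted p = 0.0189, lost without GL261 replicate 3 or naïve replicate 3, adjusted p up to 0.0862), and so did Zeb2 (log2 fold change 1.43 ± 0.39, adjusted p = 0.0181, lost without GL261 replicate 2 or naïve replicate 3, adjusted p up to 0.0625). Zeb1 (-0.38) and Snai2 (-0.51) were not called.

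Of 15 neural stem and glial progenitor factors, 4 rose and 1 fell. Sox4 rose from 14.1, 16.7 and 5.41 CPM to 65.3, 51.6 and 76.2 CPM (log2 fold change 2.41 ± 0.48, adjusted p = 0.00354). The calls for Sox2 (log2 fold change 1.30 ± 0.41, adjusted p = 0.0356), Nes (log2 fold change 2.26 ± 0.74, adjusted p = 0.0397) and Olig2 (log2 fold change 1.39 ± 0.47, adjusted p = 0.0457) were each lost in 4 or more of the 6 fits that left out 1 library. Sox10, a factor of the oligodendrocyte and neural crest lineages, is listed with the myelin genes. It was at 5.3, 15.2 and 4.6 CPM in naïve brain and 59.3, 39.6 and 60.5 CPM in GL261 (log2 fold change 2.67 ± 0.61, adjusted p = 0.00793), while the remaining 14 myelin genes were not called. Of 13 oncofetal and MYC family genes 5 rose, or 3 without GL261 replicate 3, naïve replicate 1 or naïve replicate 3. H19, an imprinted noncoding RNA of fetal tissue, was at 4.49, 8.97 and 6.76 CPM in naïve brain and at 990.1, 655 and 1267 CPM in GL261 (log2 fold change 7.17 ± 0.62, adjusted p = 1.96e-05). Its imprinted neighbour Igf2 was at 11.2, 25.4 and 16 CPM in naïve brain and 9.95, 12.4 and 22.3 CPM in GL261 and was not called (-0.23). Plagl1, an imprinted zinc finger gene, rose (log2 fold change 4.66 ± 0.66, adjusted p = 0.000478), and so did Myc (log2 fold change 2.75 ± 0.49, adjusted p = 0.00173), while Mycn was not called (-2.22). Of 19 hypoxia and glycolysis genes 3 rose and 1 fell, shares near the 14.6% and 7.77% of all genes. Without the third 005 library, and with DESeq2, 3 fell. Car9 (carbonic anhydrase 9, log2 fold change 4.13 ± 0.91, adjusted p = 0.00665) and Adm (adrenomedullin, log2 fold change 3.07 ± 0.70, adjusted p = 0.00779) rose, as did the hexokinase gene Hk2 (log2 fold change 2.4 ± 0.65, adjusted p = 0.0189, lost in 3 of the 6 fits without 1 library, adjusted p up to 0.0736). The glycolytic gene Pfkp fell (log2 fold change -1.21 ± 0.31, adjusted p = 0.0145, lost without GL261 replicate 1 or naïve replicate 1, adjusted p up to 0.061). Vegfa, the vessel growth factor, was at 15.1, 14.2 and 10.01 CPM in naïve brain and 17.4, 15.2 and 16.9 CPM in GL261 and was not called. Of 15 ATF4 and serine synthesis genes 2 rose, a share near the 14.6% of all genes. They were Psat1 (log2 fold change 1.44 ± 0.29, adjusted p = 0.00409) and Mthfd2 (log2 fold change 2.60 ± 0.52, adjusted p = 0.00353).

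**Figure D2:**
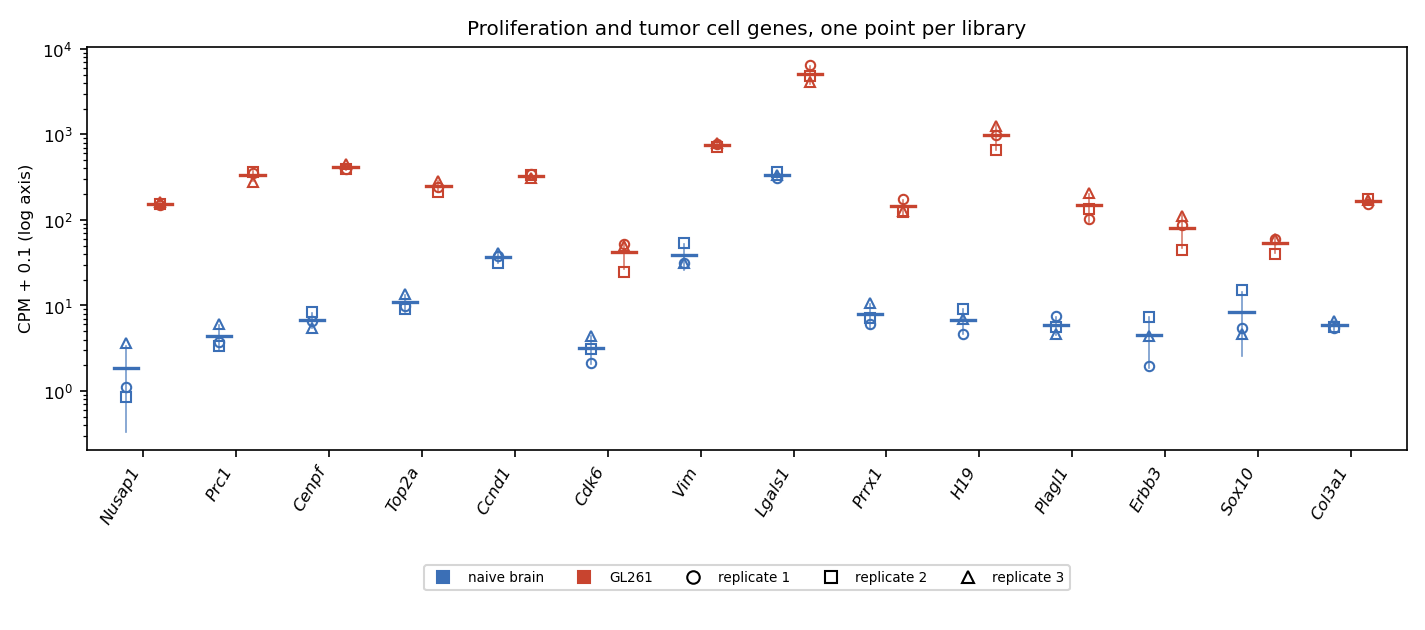
Levels of proliferation and tumor cell genes in each library. The vertical axis gives CPM + 0.1 on a log scale, and for each gene the points are the 3 naïve and the 3 GL261 libraries (circle for replicate 1, square for replicate 2, triangle for replicate 3), the bar is the group mean and the thin line is ± 1 SD. The GL261 points for Nusap1 lie from 149 to 160.0 CPM and those for H19 from 655 to 1267 CPM, far above the naïve points.

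Antigen presentation genes rose together. Of 18 MHC class I genes 16 rose, and of 12 MHC class II genes all 12 did. B2m, the light chain of class I, was at 483, 395 and 564 CPM in naïve brain and 11928, 6389 and 6259 CPM in GL261 (log2 fold change 4.09 ± 0.61, adjusted p = 0.000614). The heavy chain gene H2-K1 was at 41, 69 and 43.3 CPM in naïve brain and 859, 482 and 874 CPM in GL261 (log2 fold change 3.85 ± 0.59, adjusted p = 0.000751). The peptide transporter Tap1 (log2 fold change 4.63 ± 0.77, adjusted p = 0.00118) and the immunoproteasome subunits Psmb8 (log2 fold change 5.15 ± 0.74, adjusted p = 0.000478) and Psmb9 (log2 fold change 5.31 ± 0.87, adjusted p = 0.00107) rose with them. Calr, an endoplasmic reticulum chaperone used by all cells, was at 133, 123 and 138 CPM in naïve brain and 132, 128 and 138 CPM in GL261 and was not called, nor was H2-T23. For class II, H2-Aa was at 37.7, 47.8 and 46.8 CPM in naïve brain and at 4285, 1308 and 2219 CPM in GL261 (log2 fold change 5.88 ± 0.89, adjusted p = 0.000685). Its chaperone, the invariant chain Cd74, was at 3.06, 3.74 and 7.84 CPM in naïve brain and 267, 85 and 144 CPM in GL261 (log2 fold change 5.09 ± 0.82, adjusted p = 0.000984). Ciita, the master regulator of class II genes, had no count in the naïve libraries and 10.4, 6.79 and 11 CPM in GL261, at least 39.96-fold higher. GL261 replicate 1 had the highest value for 11 of the 12 class II genes and replicate 2 the lowest for 10, so the groups did not overlap but the GL261 libraries differed among themselves. H2-Q genes are near-identical copies, and the calls for H2-Q4 and H2-Q7 are uncertain for that reason.

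Interferon-gamma induced genes rose in 20 of 21 cases. The immunity-related GTPase Igtp was at 17.5, 17.4 and 26.8 CPM in naïve brain and 1933, 869 and 1077 CPM in GL261 (log2 fold change 5.97 ± 0.85, adjusted p = 0.000478). Its relative Irgm1 was at 41.4, 18.4 and 41.4 CPM in naïve brain and 1783, 860.5 and 1079 CPM in GL261 (log2 fold change 5.20 ± 0.61, adjusted p = 0.000147). The transcription factor gene Irf1 rose as well (log2 fold change 4.25 ± 0.66, adjusted p = 0.000776). So did the chemokine Cxcl9 (log2 fold change 5.99 ± 1.30, adjusted p = 0.00591). The guanylate binding protein gene Gbp2 was at 17.3, 19.4 and 17.8 CPM in naïve brain and 1539.5, 742 and 929 CPM in GL261 (log2 fold change 5.88 ± 0.92, adjusted p = 0.000836). Cd274, which encodes the checkpoint ligand PD-L1, went from 3.26, 5.23 and 2.97 CPM to 72.7, 28.6 and 46.8 CPM (log2 fold change 3.69 ± 0.75, adjusted p = 0.00415). Ido1, often counted among the same genes, was at 0.612, 8.97 and 6.76 CPM in naïve brain and 8.08, 4.2 and 4.0 CPM in GL261 and was the member not called. Tgtp1 and Tgtp2 are near-identical copies whose naïve values mirror each other (Tgtp1 23.5, 0 and 5.14 CPM, Tgtp2 0, 25.4 and 25.1 CPM). Only their joint rise can be read. Of 22 type I interferon-stimulated genes 17 rose and all 22 had GL261 above naïve brain. Bst2 (tetherin) was at 3.26, 4.73 and 2.7 CPM in naïve brain and 292, 141 and 196 CPM in GL261 (log2 fold change 5.87 ± 0.56, adjusted p = 3.92e-05). Ifit3 was at 33.7, 12.7 and 28.7 CPM in naïve brain and 647, 343 and 339 CPM in GL261 (log2 fold change 4.14 ± 0.54, adjusted p = 0.000275). The ubiquitin-like modifier gene Isg15 was at 0.612, 0.249 and 1.08 CPM in naïve brain and 14.5, 9.86 and 14.2 CPM in GL261 (log2 fold change 4.29 ± 0.76, adjusted p = 0.00173). The antiviral genes Mx1, Mx2, Oas2, Oasl1 and Cmpk2 were not called. The genes upstream were another matter. None of 11 tested interferons, receptors and JAK kinases was called. At an unadjusted p under 0.05 edgeR gave 2 of them, and DESeq2 called 0. Ifng was at 0, 0.249 and 0.27 CPM in naïve brain and at 3.11, 0.162 and 2.06 CPM in GL261 (log2 fold change 3.31 ± 1.36, adjusted p = 0.0858). Thus 2 GL261 libraries held it above the floor and the other did not. The receptor chains Ifngr1, Ifngr2 and Ifnar1 had log2 fold changes of 0.20, 0.21 and 0.27, which turned negative on the TPM values.

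Promoters of 4 interferon-responsive genes are shown because these genes rose together and in every GL261 library. They are printed in the same way, with capitals for the interferon-stimulated response element (ISRE, searched as a pair of GAAA words with any 2 bases between them) and the gamma-activated site (GAS, TTCNNNGAA). Both strands were searched. The windows lie at chr11:58199306-58199605 on the plus strand for Igtp, chr11:48871371-48871670 on the minus strand for Irgm1, chr2:122147437-122147736 on the plus strand for B2m and chr8:71537423-71537722 on the minus strand for Bst2.
Igtp: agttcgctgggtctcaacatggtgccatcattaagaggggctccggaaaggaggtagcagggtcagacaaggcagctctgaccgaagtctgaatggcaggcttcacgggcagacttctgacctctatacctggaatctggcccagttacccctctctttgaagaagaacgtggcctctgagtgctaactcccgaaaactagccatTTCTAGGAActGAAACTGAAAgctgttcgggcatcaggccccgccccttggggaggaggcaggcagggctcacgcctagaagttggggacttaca
Irgm1: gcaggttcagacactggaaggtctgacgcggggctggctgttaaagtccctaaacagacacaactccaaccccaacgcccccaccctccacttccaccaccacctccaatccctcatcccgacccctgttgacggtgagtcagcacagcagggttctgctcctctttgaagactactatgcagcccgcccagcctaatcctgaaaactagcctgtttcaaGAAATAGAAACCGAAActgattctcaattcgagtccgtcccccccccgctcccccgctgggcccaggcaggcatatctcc
B2m: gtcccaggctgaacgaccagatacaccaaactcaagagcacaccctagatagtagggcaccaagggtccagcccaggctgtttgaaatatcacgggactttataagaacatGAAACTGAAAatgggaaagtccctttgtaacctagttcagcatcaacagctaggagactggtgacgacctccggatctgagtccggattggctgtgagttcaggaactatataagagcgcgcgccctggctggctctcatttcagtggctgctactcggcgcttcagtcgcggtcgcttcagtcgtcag
Bst2: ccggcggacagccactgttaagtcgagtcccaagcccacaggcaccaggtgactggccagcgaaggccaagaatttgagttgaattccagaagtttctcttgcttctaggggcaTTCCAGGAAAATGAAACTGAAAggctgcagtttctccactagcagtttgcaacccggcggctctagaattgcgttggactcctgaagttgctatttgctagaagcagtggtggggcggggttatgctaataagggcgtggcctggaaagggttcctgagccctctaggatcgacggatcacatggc
In the Igtp window a GAS begins 45 bases and an ISRE 34 bases before the start, and in the Irgm1 window a pair of overlapping ISREs begins 30 and 24 bases before it. The B2m window has its ISRE at 139 bases, and the Bst2 window has a GAS at 136 and overlapping ISREs at 130 and 124 bases. Of 19 promoters of interferon-gamma induced genes, 57.9% held an ISRE and 42.1% a GAS, and of 19 promoters of type I genes 47.4% and 21.1% did. Among all promoters the shares were 3.44% and 8.3%, and among 20 promoters of synaptic genes they were 5.0% for each motif.

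Lymphocyte genes followed. Of 16 T cell receptor and coreceptor genes, 9 rose. Cd3g, a chain of the receptor complex, was at 0.816, 0.498 and 2.97 CPM in naïve brain and 64, 23.8 and 38.3 CPM in GL261 (log2 fold change 4.90 ± 0.84, adjusted p = 0.00141). The CD8 alpha chain gene Cd8a was at 0.408, 0.249 and 0.27 CPM in naïve brain and 8.91, 12.8 and 15 CPM in GL261 (log2 fold change 5.21 ± 0.91, adjusted p = 0.0016). The beta chain gene Cd8b1 was at 0, 0.498 and 0.811 CPM in naïve brain and 17.4, 13.6 and 13.7 CPM in GL261 (log2 fold change 5.14 ± 0.91, adjusted p = 0.00177). Cd4 was at 1.22, 26.4 and 4.6 CPM in naïve brain and at 2.49, 6.79 and 7.52 CPM in GL261 and was not called, naïve replicate 2 being the highest of the 6 libraries. Microglia and macrophages can carry Cd4 transcripts as well. The granzyme gene Gzma was at 1.63, 1.74 and 1.35 CPM in naïve brain and 202, 52.2 and 98.7 CPM in GL261 (log2 fold change 6.20 ± 1.01, adjusted p = 0.00103), and its relative Gzmb was at 1.84, 1.99 and 1.08 CPM in naïve brain and 132, 31.2 and 70.0 CPM in GL261 (log2 fold change 5.54 ± 0.79, adjusted p = 0.000478). The receptor gene of NK and cytotoxic cells Klrk1 (log2 fold change 5.93 ± 1.15, adjusted p = 0.00297) and the granule gene Nkg7 (log2 fold change 4.29 ± 0.87, adjusted p = 0.00396) rose with them. Perforin, Prf1, stood at 0.204, 0.249 and 0 CPM in naïve brain and 0.207, 0.162 and 1.46 CPM in GL261 and was not called. The factors Tbx21 and Eomes were higher in naïve replicate 3 (12.2 CPM for Eomes) than in any GL261 library. Of 14 checkpoint and regulatory T cell genes, 7 rose. Pdcd1 (PD-1) was at 0.204, 0 and 0 CPM in naïve brain and 2.69, 2.59 and 2.06 CPM in GL261 (log2 fold change 4.71 ± 1.32, adjusted p = 0.0213, lost without naïve replicate 2 or naïve replicate 3, adjusted p up to 0.0637). The checkpoint gene Havcr2 (TIM-3, log2 fold change 2.29 ± 0.53, adjusted p = 0.008) and the costimulatory receptor genes Tnfrsf4 (OX40, log2 fold change 3.69 ± 0.72, adjusted p = 0.00321) and Tnfrsf9 (4-1BB, log2 fold change 3.27 ± 0.63, adjusted p = 0.00293) rose too. Ctla4 was at 2.45, 0 and 0.27 CPM in naïve brain and 1.66, 1.29 and 2.55 CPM in GL261 and was not called. Foxp3, Lag3 and Tigit had too few counts to be tested. Immunoglobulin light chain transcripts, Igkc, were at 7.75, 13.7 and 11.9 CPM in naïve brain and 324, 165 and 832 CPM in GL261 (log2 fold change 5.31 ± 1.13, adjusted p = 0.00531). The joining chain gene Jchain rose as well (log2 fold change 4.73 ± 1.29, adjusted p = 0.0188, lost in 3 of the 6 fits without 1 library, adjusted p up to 0.0708). The B cell surface gene Ms4a1 (CD20) was at 0.622, 0.97 and 0.485 CPM in GL261 and was not called. Cr2, a complement receptor of B cells, was at 0.408, 0.249 and 0.27 CPM in naïve brain and 107, 1.45 and 106 CPM in GL261 (log2 fold change 7.75 ± 1.31, adjusted p = 0.00134). Its GL261 values were split, with replicates 1 and 3 high and replicate 2 low. In all, 4 of 9 B cell and plasma cell genes rose, or 2 without GL261 replicate 3 or naïve replicate 2.

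Myeloid genes rose in part. Of 19 monocyte and macrophage genes 17 rose and none fell. Chil3 was at 0.408, 0.498 and 0.541 CPM in naïve brain and 64.2, 48 and 36.9 CPM in GL261 (log2 fold change 6.65 ± 1.16, adjusted p = 0.00153). The Fc receptor gene Fcgr4 was at 1.22, 2.99 and 1.35 CPM in naïve brain and 131, 50.6 and 58.4 CPM in GL261 (log2 fold change 5.43 ± 0.86, adjusted p = 0.000886). The LPS coreceptor gene Cd14 was at 12, 6.97 and 14.1 CPM in naïve brain and 401, 205 and 189.9 CPM in GL261 (log2 fold change 4.59 ± 0.52, adjusted p = 0.00012). The lysozyme gene Lyz2, abundant in monocytes, was at 139, 169 and 144 CPM in naïve brain and 1763, 763 and 886 CPM in GL261 (log2 fold change 2.91 ± 0.69, adjusted p = 0.00957). Arg1 (arginase 1) was called with a wide spread, at 2.86, 5.98 and 3.79 CPM in naïve brain and 115, 13.4 and 56 CPM in GL261 (log2 fold change 3.87 ± 0.79, adjusted p = 0.00405). Cd163 and Mrc1, both scavenger or mannose receptor genes of resident macrophages, were not called. Of 17 genes of lipid-associated macrophages and disease-associated microglia, 13 rose, among them Cst7 (log2 fold change 5.36 ± 0.68, adjusted p = 0.000231), Gpnmb (log2 fold change 5.26 ± 0.43, adjusted p = 1.15e-05) and Lgals3 (log2 fold change 4.78 ± 0.70, adjusted p = 0.000542). The apolipoprotein gene Apoe stood at 800.1, 568 and 892 CPM in naïve brain and 1052, 1067 and 806 CPM in GL261 and was not called. Of 14 homeostatic microglia genes, 2 rose, a share near the 14.6% of all genes, among them Olfml3 (log2 fold change 1.77 ± 0.43, adjusted p = 0.0102). None fell, or 1 without the third 005 library. The defining genes were not called, with the purinergic receptor gene P2ry12 at 60.2, 31.9 and 57.6 CPM in naïve brain and 20.3, 33.8 and 13.2 CPM in GL261. Tmem119 was at 1.63, 12.7 and 5.41 CPM in naïve brain and 7.88, 6.47 and 9.7 CPM in GL261, and the factor gene Sall1 was at 5.71, 13.9 and 9.46 CPM in naïve brain and 4.77, 3.23 and 6.91 CPM in GL261. Of 11 dendritic cell genes 1 rose, the chemokine receptor gene Ccr7 (log2 fold change 4.86 ± 1.28, adjusted p = 0.0165, lost without naïve replicate 3, adjusted p up to 0.0523), and none fell, or 1 without the third 005 library. Of 7 tested neutrophil and eosinophil genes 2 rose, or 0 without naïve replicate 1, and none fell. A further 7 members of that list were not tested. The neutrophil gene S100a8 stood at 5.18, 3.88 and 4.61 CPM in GL261, and its partner S100a9 at 1.87, 2.26 and 1.82 CPM, without a call.

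Among 20 chemokines and their receptors, 7 rose and 1 fell, or 3 fell without the third 005 library. Ccl12, a monocyte attractant, was at 12.6, 6.48 and 11.6 CPM in naïve brain and 275, 188 and 182 CPM in GL261 (log2 fold change 4.39 ± 0.66, adjusted p = 0.000623). Cxcl13, a B cell attractant, was at 0.816, 0.747 and 0.811 CPM in naïve brain and 29, 15.7 and 19.9 CPM in GL261 (log2 fold change 4.73 ± 0.76, adjusted p = 0.000976). The T cell attractants Ccl5 (log2 fold change 2.97 ± 0.78, adjusted p = 0.0166, lost without GL261 replicate 1 or naïve replicate 1, adjusted p up to 0.0656) and Cxcl16 (log2 fold change 3.02 ± 0.67, adjusted p = 0.0066) rose. Ccl2 was already at 133, 142 and 154 CPM in naïve brain, stood at 350.1, 198 and 251 CPM in GL261 and was not called. The neuronal chemokine Cx3cl1 fell, from 116, 264 and 111 CPM to 11.8, 29.3 and 23.2 CPM (log2 fold change -2.93 ± 0.63, adjusted p = 0.00576). The gene for its receptor on microglia, Cx3cr1, was not called (0.46). Of 14 cytokine genes, Il1rn (log2 fold change 5.19 ± 0.89, adjusted p = 0.00146), Il1a (log2 fold change 2.28 ± 0.47, adjusted p = 0.00418) and Csf1 (log2 fold change 1.35 ± 0.39, adjusted p = 0.0255, lost in 3 of the 6 fits without 1 library, adjusted p up to 0.101) rose. Il34, the neuronal ligand of the CSF1 receptor, fell (log2 fold change -1.78 ± 0.41, adjusted p = 0.0078, lost without GL261 replicate 1, adjusted p up to 0.0547). Tnf, Il6 and Tgfb1 were not called. Complement rose in 14 of 16 genes. C2, of the classical pathway, was at 2.45, 2.24 and 2.43 CPM in naïve brain and 126, 41.9 and 66.2 CPM in GL261 (log2 fold change 5.03 ± 0.52, adjusted p = 6.6e-05). C1qa (log2 fold change 2.71 ± 0.56, adjusted p = 0.00445), Cfb (log2 fold change 4.76 ± 0.85, adjusted p = 0.00189) and C4b (log2 fold change 3.52 ± 0.42, adjusted p = 0.000147) were others. The inhibitor gene Cd55 (-0.79) was among the 2 members not called.

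**Figure D3:**
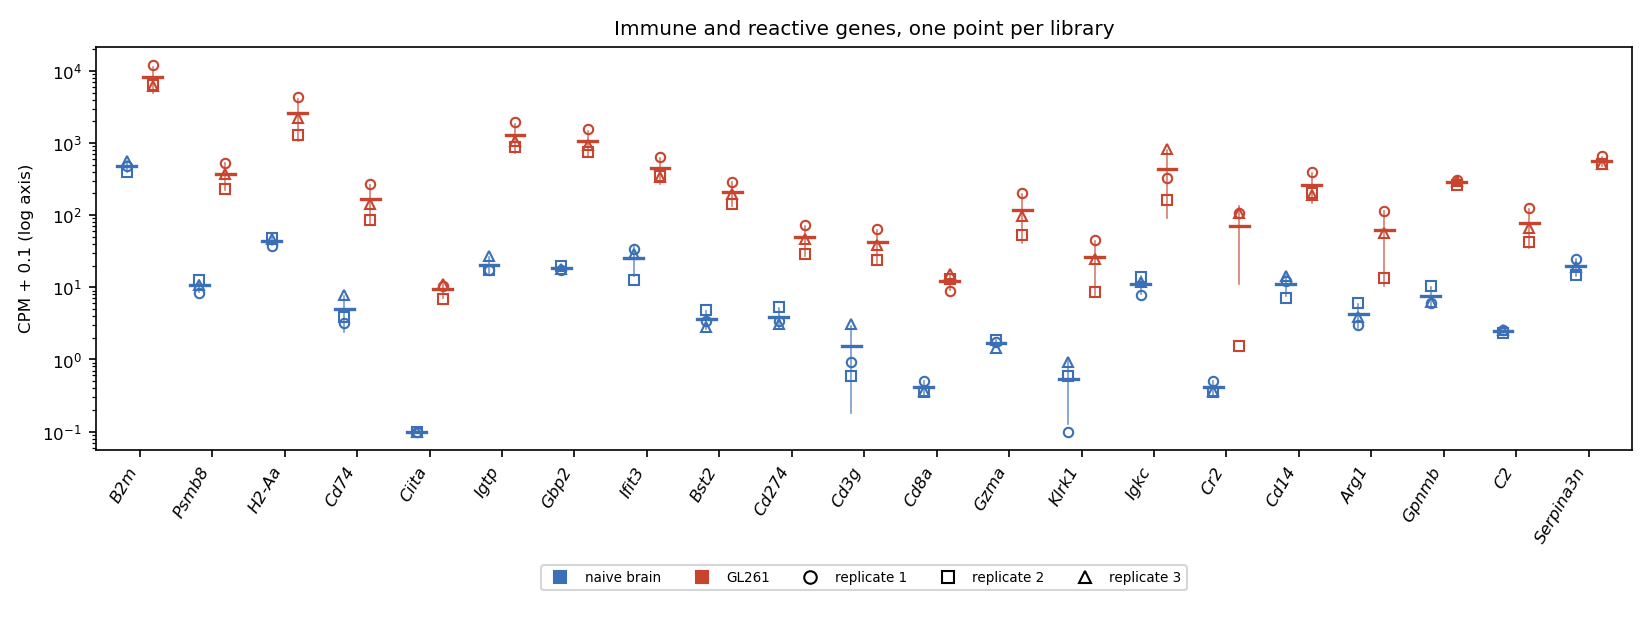
Levels of interferon, antigen presentation, lymphocyte and myeloid genes in each library. The vertical axis gives CPM + 0.1 on a log scale, points are the naïve and GL261 libraries (circle, square and triangle for replicates 1, 2 and 3), bars are group means and thin lines ± 1 SD. Igtp runs from 869 to 1933 CPM in GL261 and replicate 2, the square, is its lowest point, while Cr2 has 2 high GL261 points and 1 low one.

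Reactive astrocyte genes rose in 8 of 11 cases. The serpin gene Serpina3n was at 24.7, 14.7 and 18.9 CPM in naïve brain and 655, 515 and 510.4 CPM in GL261 (log2 fold change 4.85 ± 0.68, adjusted p = 0.000471). Gfap, the astrocyte filament gene, was at 9.18, 6.48 and 6.49 CPM in naïve brain and 37.7, 60.1 and 33 CPM in GL261 (log2 fold change 2.56 ± 0.59, adjusted p = 0.0086). Lcn2 (lipocalin 2) was at 28.8, 42.6 and 32.7 CPM in naïve brain and 297, 212 and 239 CPM in GL261 (log2 fold change 2.84 ± 0.31, adjusted p = 0.0001). All 13 homeostatic astrocyte genes had a negative log2 fold change (median -0.95), 7 had every GL261 library below every naïve library, and none was called. The water channel gene Aqp4 was at 128, 87.2 and 123 CPM in naïve brain and 106, 144 and 68.1 CPM in GL261, and the glutamate transporter gene Slc1a2 was at 539.8, 1072 and 452 CPM in naïve brain and 172, 323 and 227 CPM in GL261. Slc1a2 did not overlap between the groups and Aqp4 did. At an unadjusted p under 0.05 the edgeR test gave 1 of these 13 genes, and DESeq2 called 0. The number called lower was 3 without the third 005 library, 2 when only the 6 libraries were fitted and 5 on the TPM values.

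Matrix and vessel genes divided. Of 17 collagen and matrix genes 5 rose and 1 fell. Col3a1 was at 5.3, 5.48 and 6.49 CPM in naïve brain and 152, 176 and 169 CPM in GL261 (log2 fold change 4.85 ± 0.73, adjusted p = 0.00068). Col1a1, its fibrillar partner, was at 3.06, 4.48 and 5.14 CPM in naïve brain and 6.63, 5.33 and 6.55 CPM in GL261 and was not called. Fn1 (fibronectin, log2 fold change 1.70 ± 0.43, adjusted p = 0.013), Sparc (log2 fold change 1.96 ± 0.33, adjusted p = 0.00135) and Col18a1 (log2 fold change 2.59 ± 0.60, adjusted p = 0.00814) rose, and Col6a2 was called lower (log2 fold change -1.52 ± 0.51, adjusted p = 0.0431, lost in 6 of the 6 fits without 1 library, adjusted p up to 0.173). Of 17 matrix proteases and inhibitors 8 rose. The inhibitor gene Timp1 was at 27.5, 32.9 and 36 CPM in naïve brain and 389, 323 and 303 CPM in GL261 (log2 fold change 3.40 ± 0.54, adjusted p = 0.000899). The protease genes Mmp2 (log2 fold change 3.26 ± 0.63, adjusted p = 0.00304) and Adamts1 (log2 fold change 3.31 ± 0.48, adjusted p = 0.000525) rose too, and Mmp9 was not called. Leaving out 1 library gave 4 to 7 of these 17 genes, the lowest count without naïve replicate 1. None fell, or 1 without the third 005 library. Of 10 neural matrix genes, 8 had a negative log2 fold change (median -1.43) and 5 had every GL261 library below every naïve library, but none was called lower. Without the third 005 library 5 were called lower, with DESeq2 5, with no filter on low counts 4 and when only the 6 libraries were fitted 4. The proteoglycan genes Ncan (-1.72) and Bcan (-1.62) were not called. Vcan (versican) rose (log2 fold change 2.15 ± 0.67, adjusted p = 0.0346, lost in 4 of the 6 fits without 1 library, adjusted p up to 0.115). Of 16 endothelial and blood-brain barrier genes, 1 rose and 1 fell, or 2 and 2 without the third 005 library. Angpt2, which destabilizes vessels, rose from 5.1, 2.99 and 2.16 CPM to 12.6, 14.5 and 14 CPM (log2 fold change 1.98 ± 0.48, adjusted p = 0.0109). Abcb1a, the barrier efflux pump, was at 157, 10.5 and 5.14 CPM in naïve brain and 2.49, 5.01 and 2.43 CPM in GL261 (log2 fold change -4.12 ± 1.04, adjusted p = 0.0133, lost in 3 of the 6 fits without 1 library, adjusted p up to 0.206). Naïve replicate 1 was far above the rest. The endothelial adhesion gene Pecam1, at 138, 162 and 149 CPM in naïve brain and 194, 142 and 164 CPM in GL261, was not called. Nor was the tight junction gene Cldn5, at 4.28, 6.97 and 1.62 CPM in naïve brain and 3.32, 3.56 and 3.64 CPM in GL261. No mural gene and no ependymal or choroid plexus gene was called (0 of 9 and 0 of 9). At an unadjusted p under 0.05 these were 2 and 0 by edgeR, and DESeq2 called 0 and 0. Without the third 005 library 1 ependymal or choroid plexus gene was called lower.

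Most neuronal genes lay lower in GL261, but few were called in the test over all 15 libraries. Of 19 synaptic vesicle and scaffold genes, all 19 had a negative log2 fold change (median -2.24) and 7 were called. In 18 of them every GL261 library lay below every naïve library, against 24.1% of all genes. The presynaptic gene Syn2 was at 369, 247 and 229 CPM in naïve brain and 30.9, 62.5 and 50.1 CPM in GL261 (log2 fold change -2.56 ± 0.85, adjusted p = 0.0429, lost in 6 of the 6 fits without 1 library, adjusted p up to 0.169). The scaffold gene Shank2 was at 38.8, 60.03 and 30.02 CPM in naïve brain and 2.49, 9.21 and 8.86 CPM in GL261 (log2 fold change -2.63 ± 0.74, adjusted p = 0.0221, lost in 3 of the 6 fits without 1 library, adjusted p up to 0.105). Snap25 missed the threshold (log2 fold change -2.12 ± 0.89, adjusted p = 0.0929), as did the calcium sensor gene Syt1 (log2 fold change -2.34 ± 1.03, adjusted p = 0.104). The count of called synaptic genes was 18 without the third 005 library, 18 when only the 6 libraries were fitted, 16 with DESeq2 and 0 to 3 when 1 of the 6 libraries was left out. It was 0 without GL261 replicate 1 and 0 without GL261 replicate 3. GL261 replicate 2 had the highest value of the 3 for all 19 of these genes and replicate 1 the lowest for 18.

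The other neuronal lists also gave more calls without the third 005 library. All 14 genes of GABA synthesis and reception lay below naïve brain in every library, and 3 were called, or 13 without that library. Gad1, an enzyme that makes GABA, was at 135, 159 and 167 CPM in naïve brain and 28.8, 51.4 and 38.2 CPM in GL261 (log2 fold change -1.96). The second such enzyme, Gad2, was at 204, 154 and 129.5 CPM in naïve brain and 36.1, 78.5 and 39.9 CPM in GL261 (log2 fold change -1.66). Of 13 glutamate receptor and transport genes 1 was called, a share near the 7.77% of all genes that fell, or 9 without the third 005 library. The 1 called was Gria3, at 206, 181 and 174 CPM in naïve brain and 20.1, 70.5 and 41.9 CPM in GL261 (log2 fold change -2.08 ± 0.67, adjusted p = 0.0371, lost in 5 of the 6 fits without 1 library, adjusted p up to 0.169). Gria1 was the exception among AMPA receptor genes, because GL261 replicate 1, at 162 CPM, lay within the naïve range of 186, 157 and 111 CPM. Ion channel calls numbered 3 of 15, or 12 without that library, with Scn2a at 329, 159 and 231 CPM in naïve brain and 24.5, 76.1 and 33.6 CPM in GL261 (log2 fold change -2.42 ± 0.76, adjusted p = 0.0348, lost in 5 of the 6 fits without 1 library, adjusted p up to 0.156). Among 21 identity and neuropeptide genes 6 were called, or 14 without it. Sst (somatostatin) was at 138, 99.4 and 117 CPM in naïve brain and 7.46, 26.8 and 17.6 CPM in GL261 (log2 fold change -2.77 ± 0.91, adjusted p = 0.0406, lost in 6 of the 6 fits without 1 library, adjusted p up to 0.164). The cortical factor gene Bcl11b was at 96.3, 99.1 and 138 CPM in naïve brain and 7.05, 31.8 and 23.9 CPM in GL261 (log2 fold change -2.4 ± 0.72, adjusted p = 0.028, lost in 5 of the 6 fits without 1 library, adjusted p up to 0.131). Pvalb, of fast-spiking interneurons, was at 87.7, 109 and 112 CPM in naïve brain and 68, 93.4 and 31.7 CPM in GL261. Tubb3, a neuronal tubulin, was at 133, 145 and 163 CPM in naïve brain and 162, 108 and 93.8 CPM in GL261. The groups overlapped for both. Of 12 immediate early genes 3 fell, or 6 without the third 005 library. Bdnf, a neurotrophin induced by activity, fell from 117, 39.9 and 111 CPM to 12.6, 9.37 and 11.5 CPM (log2 fold change -2.99 ± 0.69, adjusted p = 0.00817) and kept its call without each library. Arc (log2 fold change -3.36 ± 0.89, adjusted p = 0.017, lost without GL261 replicate 1 or naïve replicate 2, adjusted p up to 0.0786) and Egr1 (log2 fold change -1.86 ± 0.57, adjusted p = 0.0312, lost in 4 of the 6 fits without 1 library, adjusted p up to 0.146) were the others, while Fos (-0.85) and Junb (-0.30) were not called. Leaving out GL261 replicate 1 left 0 called members in the synaptic, GABA, glutamate, ion channel and identity lists.

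Mitochondrially encoded transcripts were lower together. Of 13, 11 were called, and 12 had no overlap between the groups. The complex I gene mt-Nd2 was at 3203, 2293 and 3403 CPM in naïve brain and 552, 1291 and 731 CPM in GL261 (log2 fold change -1.79 ± 0.50, adjusted p = 0.021, lost in 4 of the 6 fits without 1 library, adjusted p up to 0.121). The cytochrome oxidase gene mt-Co2 was at 3989, 3381 and 4764 CPM in naïve brain and 1035, 2060.2 and 1421 CPM in GL261 (log2 fold change -1.43 ± 0.39, adjusted p = 0.0196, lost in 4 of the 6 fits without 1 library, adjusted p up to 0.125). The values of mt-Cytb overlapped, since GL261 replicate 2 (8422 CPM) exceeded naïve replicate 2 (7532 CPM). GL261 replicate 2 was the highest GL261 library for all 13. The number of calls fell from 11 to 0 without GL261 replicate 1, without GL261 replicate 3 or without naïve replicate 1, and to 1 without naïve replicate 3. Nuclear-encoded subunits of the same complexes had a median log2 fold change of -0.64, with 2 of 18 called lower. These were Ndufv1 (log2 fold change -1.10 ± 0.31, adjusted p = 0.0217, lost in 4 of the 6 fits without 1 library, adjusted p up to 0.128) and Uqcrfs1 (log2 fold change -1.21 ± 0.34, adjusted p = 0.0213, lost in 3 of the 6 fits without 1 library, adjusted p up to 0.111). Of 5 red blood cell genes 4 were called lower. The globin gene Hbb-bs was at 868, 924 and 242 CPM in naïve brain and 131, 119.6 and 117 CPM in GL261 (log2 fold change -2.47 ± 0.61, adjusted p = 0.0115, lost without GL261 replicate 1 or naïve replicate 2, adjusted p up to 0.0542). Naïve replicate 3 was nearest to GL261, and none of the 5 was called without GL261 replicate 1 or without naïve replicate 2. The globin copies share reads.

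Of 15 myelin and oligodendrocyte genes, 12 had a negative log2 fold change (median -0.59). In 3 of them every GL261 library lay below every naïve library, no more than the 24.1% of all genes. None was called lower, or 2 without the third 005 library and 2 when only the 6 libraries were fitted. Sox10 was the member that rose. Mobp was at 177, 315 and 158 CPM in naïve brain and 181, 294 and 135 CPM in GL261, and Mbp (myelin basic protein) was at 402, 1489 and 343 CPM in naïve brain and 352, 376 and 257 CPM in GL261. Naïve replicate 2 was the highest library for both, and the groups overlapped for both.

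**Figure D4:**
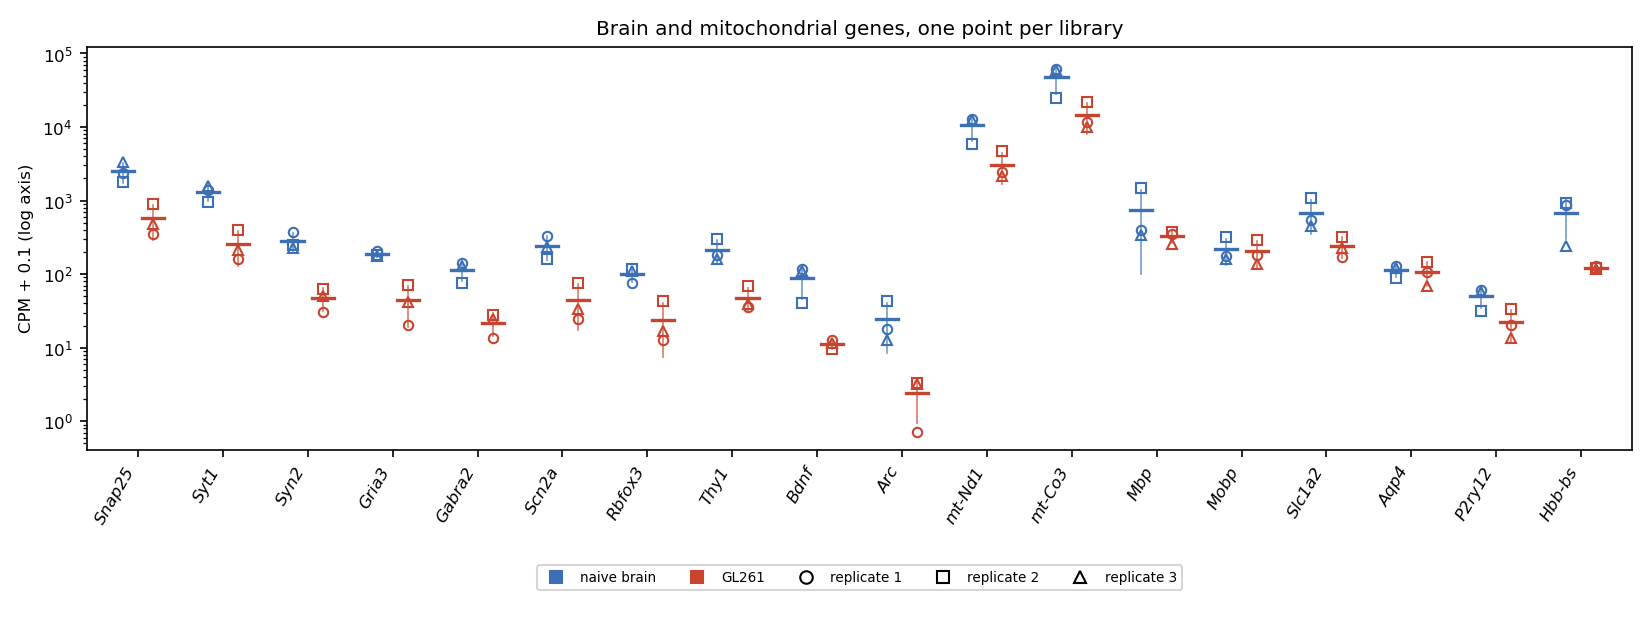
Levels of neuronal, mitochondrial, glial and vascular genes in each library. The vertical axis gives CPM + 0.1 on a log scale, points are the naïve and GL261 libraries (circle, square and triangle for replicates 1, 2 and 3), bars are group means and thin lines ± 1 SD. The 3 GL261 points for Syn2 lie from 30.9 to 62.5 CPM, below the naïve points, with replicate 2 the nearest to them, while the groups of Mobp overlap.

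By the rule for the 10 largest changes, Coro2a, an actin-binding coronin family gene, came first among the gains, at 6.12, 5.48 and 5.41 CPM in naïve brain and 1579, 1257 and 1637 CPM in GL261 (log2 fold change 8.03 ± 0.66, adjusted p = 1.17e-05). The interferon-inducible Ifi213 was at 1.22, 1.25 and 1.62 CPM in naïve brain and 258, 93.9 and 119 CPM in GL261 (log2 fold change 6.84 ± 0.75, adjusted p = 8.97e-05). The GTPase gene Ifi47 was at 5.51, 11.5 and 9.19 CPM in naïve brain and 1171, 439.8 and 560.3 CPM in GL261 (log2 fold change 6.38 ± 0.78, adjusted p = 0.000178). Gtsf1, a partner of PIWI proteins in the germline, was at 1.22, 0.996 and 1.08 CPM in naïve brain and 154, 88.6 and 82 CPM in GL261 (log2 fold change 6.59 ± 0.74, adjusted p = 0.000107). The cytokine-like gene Cytl1, known from cartilage, was at 2.24, 5.73 and 1.89 CPM in naïve brain and 384, 305 and 264 CPM in GL261 (log2 fold change 6.59 ± 1.04, adjusted p = 0.000877). Col2a1, the type II collagen of cartilage, was at 3.06, 3.74 and 3.79 CPM in naïve brain and 200.4, 189 and 377 CPM in GL261 (log2 fold change 6.18 ± 0.45, adjusted p = 6.95e-06). The reductase gene Akr1c13 was at 2.04, 1.74 and 1.08 CPM in naïve brain and 232, 144 and 76.3 CPM in GL261 (log2 fold change 6.51 ± 0.72, adjusted p = 0.0001). Nusap1, Prc1 and Gzma complete it. In each of these genes every GL261 library lay above every naïve library, which the rule for choosing them required.

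The largest losses included pituitary hormone genes. Gh (growth hormone) was at 621, 186 and 70.8 CPM in naïve brain and 18.2, 6.3 and 7.04 CPM in GL261 (log2 fold change -4.81 ± 1.08, adjusted p = 0.00723). Prl (prolactin) was at 1179, 248 and 97.3 CPM in naïve brain and 35.9, 10.02 and 13.8 CPM in GL261 (log2 fold change -4.68 ± 1.07, adjusted p = 0.00779). Naïve replicate 1 was the highest library for both, and the pituitary hormone gene Pomc was also highest there (57.3, 9.72 and 8.11 CPM in naïve brain and 1.66, 0.647 and 3.64 CPM in GL261). How much pituitary tissue each sample held was not tested. Erbb4, a neuregulin receptor of interneurons, was at 34.5, 258 and 17.8 CPM in naïve brain and 0.622, 5.82 and 5.58 CPM in GL261 (log2 fold change -4.65 ± 1.5, adjusted p = 0.0376, lost in 5 of the 6 fits without 1 library, adjusted p up to 0.222), with naïve replicate 2 far above the others. The mineralocorticoid receptor gene Nr3c2 was at 51.4, 19.2 and 69.5 CPM in naïve brain and 0.622, 5.17 and 1.46 CPM in GL261 (log2 fold change -4.25 ± 1.19, adjusted p = 0.0212, lost in 3 of the 6 fits without 1 library, adjusted p up to 0.0977). Neurod6, a factor of cortical projection neurons, fell (log2 fold change -3.16 ± 1.04, adjusted p = 0.0407, lost in 6 of the 6 fits without 1 library, adjusted p up to 0.16). So did the potassium channel gene Kcnv1 (log2 fold change -3.07 ± 0.96, adjusted p = 0.0346, lost in 5 of the 6 fits without 1 library, adjusted p up to 0.129). The calcium sensor gene Cpne6 (log2 fold change -2.98 ± 0.84, adjusted p = 0.0222, lost in 4 of the 6 fits without 1 library, adjusted p up to 0.104) and the neurite growth gene Nrn1 (log2 fold change -2.93 ± 0.86, adjusted p = 0.0263, lost in 5 of the 6 fits without 1 library, adjusted p up to 0.111) completed the list with Bdnf and Cx3cl1, described above.

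The 3 GL261 libraries formed an order that ran through several programs. Replicate 1 had the highest value for 20 of 21 interferon-gamma induced genes and 13 of 16 complement genes, and replicate 2 had the lowest for 20 of 21 interferon-gamma induced genes and 17 of 18 MHC class I genes. The same replicate 2 was highest for 19 of 19 synaptic genes and 12 of 13 astrocyte genes. Summed over the list, interferon-gamma induced genes were at 237, 194 and 221 CPM in the naïve libraries and reached 11983, 5604 and 7506 CPM in GL261 replicates 1, 2 and 3. The sums of synaptic genes were 6975, 6704 and 7408 CPM in naïve brain and 861, 2318 and 1328 CPM in GL261. For mitosis genes they were 88.1, 115 and 105 and 2436, 2239 and 2277 CPM. How much brain tissue each tumor sample held was not tested.

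Set against the mean of the CT2A, 005 and Mut3 tumors, 782 genes (4.47% of those tested) were higher in GL261 and 362 (2.07%) lower. Without the third 005 library these counts were 1834 and 788. Since all lines share the same naïve samples, this asks where the change from naïve brain differed between GL261 and the other lines. A higher value can be a larger gain or a smaller loss. All 13 glutamate receptor and transport genes lay lower than in naïve brain by log2 fold change. Over the other tumors their median was 1.44, with 1 called higher. For the 19 synaptic genes, also all lower than in naïve brain, it was 1.08, with 0 called. Interferon and antigen presentation genes were among those higher in GL261. Of 21 interferon-gamma induced genes 12 were higher than in the other tumors, of 12 MHC class II genes 8 and of 22 type I genes 11, and none was lower. The comparison is with the mean of the other lines, and the ranges of these programs overlapped. Summed over the list, interferon-gamma induced genes reached 12711 CPM in the highest 005 library, above all 3 GL261 libraries, and stayed at or below 2099 CPM in CT2A and 1775 CPM in Mut3. For MHC class II the highest 005 library reached 10935 CPM against 8740.5, 3430.0 and 4884 CPM in GL261. For type I genes the highest CT2A library reached 5091 CPM and the highest 005 library 4433 CPM, against 5714, 3168 and 3371 CPM. Igtp, at 1933, 869 and 1077 CPM in GL261, ranged from 31.1 to 751 CPM in the 9 other tumor libraries (log2 fold change 2.91 ± 0.51 over the other tumors, adjusted p = 0.00276). H2-Aa, at 4285, 1308 and 2219 CPM, ranged from 45 to 3816 CPM (log2 fold change 2.61 ± 0.54 over the other tumors, adjusted p = 0.00814). The H2-Aa ranges overlapped through 005 replicate 2, and its call was lost without GL261 replicate 1 (adjusted p = 0.0785). For Igtp every GL261 library lay above all 9 others, as for 2.8% of all genes, while 2.28% lay below. The complement gene C2 (log2 fold change 3.82 ± 0.32 over the other tumors, adjusted p = 4.29e-06) and the receptor gene Cd14 (log2 fold change 3.20 ± 0.33 over the other tumors, adjusted p = 3.31e-05) were also higher, with no overlap. Of 23 mitosis genes and 21 DNA replication genes, 0 and 0 were called against the other tumors. At an unadjusted p under 0.05 these were 4 and 2 by edgeR, and DESeq2 called 0 and 1. Prc1, at 350.3, 364 and 279 CPM in GL261, ranged from 32.8 to 584 CPM in the others.

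Several genes set GL261 apart from the other lines in this comparison. Car6, a secreted carbonic anhydrase, was at 347, 209 and 203 CPM in GL261 and between 0.285 and 5.82 CPM in the other tumor libraries (log2 fold change 7.32 ± 0.42 over the other tumors, adjusted p = 1.05e-07). Moxd1, a monooxygenase-like gene, was at 298, 228 and 328 CPM against 1.45 to 6.52 CPM (log2 fold change 6.54 ± 0.33 over the other tumors, adjusted p = 2.7e-08). Cytl1 was at 384, 305 and 264 CPM against 1.09 to 96 CPM (log2 fold change 5.91 ± 0.63 over the other tumors, adjusted p = 4.19e-05), the upper values being those of Mut3. Plagl1 (log2 fold change 5.74 ± 0.44 over the other tumors, adjusted p = 1.91e-06) and the drug and toxin extruder gene Slc47a1 (log2 fold change 5.67 ± 0.46 over the other tumors, adjusted p = 2.91e-06) complete the first 5 under the rule for naming genes. Gtsf1 differed more, at 154, 88.6 and 82 CPM against 0 to 1.07 CPM (log2 fold change 8.25 ± 0.49 over the other tumors, adjusted p = 1.05e-07). It fell outside the rule, which needs 3 counts in every library of the lower group. H19 (log2 fold change 6.28 ± 0.37 over the other tumors, adjusted p = 1.05e-07), Erbb3 (log2 fold change 3.74 ± 0.40 over the other tumors, adjusted p = 4.21e-05) and Sox10 (log2 fold change 3.40 ± 0.43 over the other tumors, adjusted p = 0.000208) were higher as well, each with every GL261 library above all 9 others. Coro2a was shared in part: the CT2A libraries had a mean of 829 CPM, whereas 005 and Mut3 had means of 5.29 and 1.16 CPM. The axon guidance ligand gene Sema3a was lower than in the other tumors, at 0.622, 2.91 and 3.4 CPM against 9.4 to 284 CPM (log2 fold change -5.13 ± 0.76 over the other tumors, adjusted p = 0.000855). It also lay below its naïve level (16.5, 15.7 and 18.7 CPM, log2 fold change -2.82 ± 0.75, adjusted p = 0.0166, lost without GL261 replicate 1, adjusted p up to 0.088). The actin-linked gene Afap1 (log2 fold change -3.67 ± 0.51 over the other tumors, adjusted p = 0.000529) and the thrombin receptor gene F2r (log2 fold change -3.19 ± 0.48 over the other tumors, adjusted p = 0.000904) were lower too. So were the receptor gene Igf2r (log2 fold change -2.58 ± 0.62 over the other tumors, adjusted p = 0.0219) and the amino acid transporter gene Slc38a6 (log2 fold change -2.56 ± 0.36 over the other tumors, adjusted p = 0.000564). The Igf2r call was lost without any 1 of the GL261 libraries, with an adjusted p of up to 0.104. A lower value than in the other tumors was not always a loss from naïve brain. Slc38a6 was at 24.7, 25.2 and 18.4 CPM in naïve brain and 17.6, 23.3 and 21.1 CPM in GL261. These groups overlapped for Slc38a6 and for F2r. Every GL261 library lay below every naïve library for Afap1, and for Igf2r without a call.

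**Figure D5:**
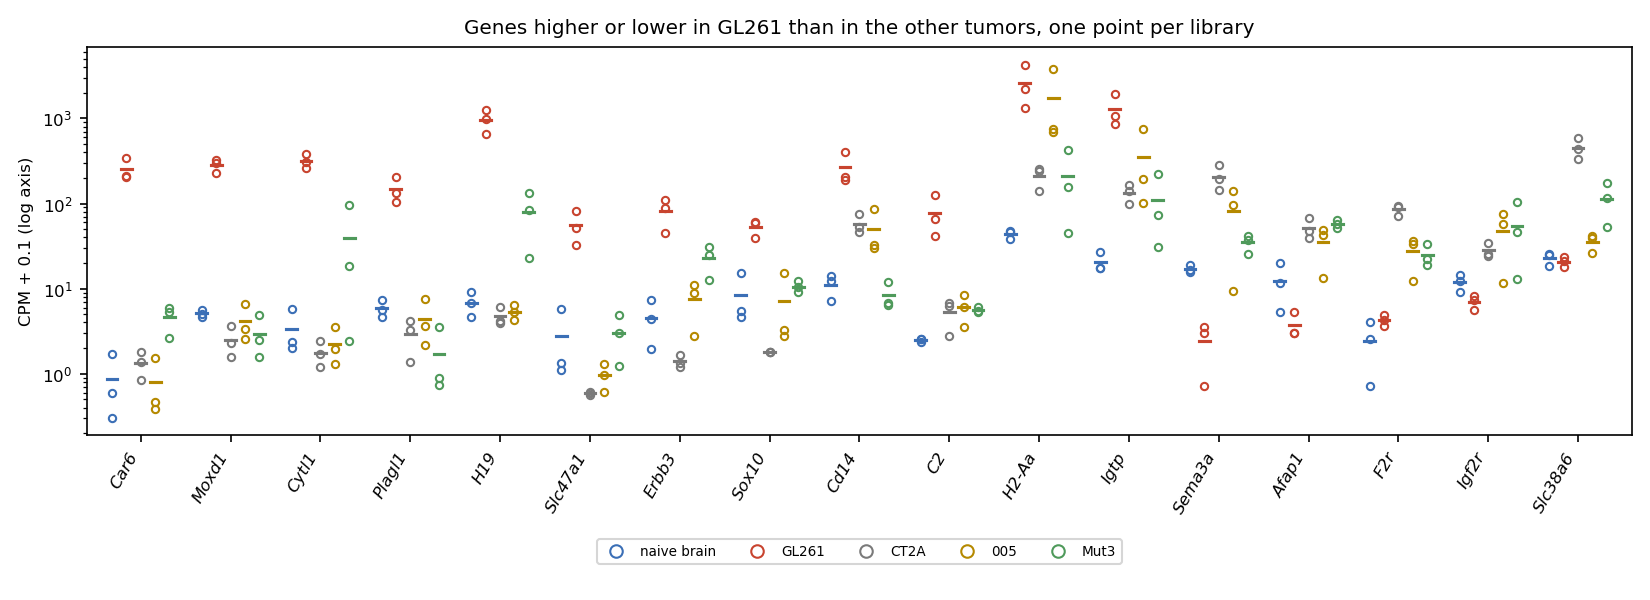
Levels of genes that differ between GL261 and the other tumors, in all 15 libraries. The vertical axis gives CPM + 0.1 on a log scale, the colors stand for naïve brain, GL261, CT2A, 005 and Mut3, each circle is a library and the bars are group means. The GL261 points for Car6 lie from 203 to 347 CPM while no other library exceeds 5.82 CPM, and those for Sema3a lie below every other library.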

How the data were processed

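RNA of tumor or brain tissue was sequenced on Illumina instruments as whole transcriptome. The authors used STAR for alignment to the mouse genome of GENCODE and took metrics with Picard and RNA-SeQC, and the submitters' processing notes name Salmon, DESeq2 1.18.1 and mm10 without saying what each made. The authors deposited an expected count per gene and sample, which is an estimate and need not be whole, and a TPM value scaled by gene length to a fixed total per sample. For 4644 well-counted genes the ratio of count to TPM was a gene factor times a sample factor, so the TPM table is no independent measurement.

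Samples were grouped by the source name in the labels. Expected counts were rounded and fitted in R 4.3.3 with edgeR 4.0.16 (filterByExpr, TMM, quasi-likelihood test, 5 group means, all 15 samples, no covariate). Calls needed both an adjusted p (Benjamini-Hochberg) below 0.05 and a change of at least 2-fold. GL261 was compared with naïve brain and with the mean of the other 3 tumors. On simulated counts for the first comparison over 16962 genes, with 200 genes changed, 1.56% of 2-fold, 27.7% of 4-fold and 58.5% of 8-fold changes were called. Genes without a call may thus still differ. Far more genes were called in the data, and the adjusted p depends on how many genes change. The percentages therefore hold for the simulated setting only. Depth, lowest in naïve brain, limits genes that are low there.

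The 46 gene lists (713 genes, 682 tested) and the comparison were chosen with earlier results of these data known. Genes named are list members, or the 10 largest called changes per direction against naïve brain (5 against the other tumors) among protein-coding genes without overlap, for which log2 CPM averaged 5 or more in the higher group and every library of the lower group held at least 3 counts. Pomc was added after its values were seen. Positions and promoters are on GRCm38, and 46201 of 46679 gene identifiers matched GENCODE M21. Alternatives were DESeq2 1.42.0, library size in place of TMM, other filters, limma 3.58.1 on log2(TPM + 1), a fit of the compared groups only, a replicate block, and each library left out. GFP and luciferase transcripts were not analysed here. Some members of the lists are counted but are not reported by name here.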

Additional observations from a re-analysis of the deposited data

Results flagged for a closer look

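The change from naïve brain to tumor was not the same in GL261 as in the other lines, as tested by the contrast of GL261 with the mean of CT2A, 005 and Mut3 in the edgeR quasi-likelihood fit. With an adjusted p (Benjamini-Hochberg) below 0.05 and a difference of at least 2-fold, 782 genes were higher and 362 lower in GL261. Under the rule for naming genes, the largest such differences among the higher were Car6 (log2 difference 7.32), Moxd1 (6.54), Cytl1 (5.91), Plagl1 (5.74) and Slc47a1 (5.67). Among the lower they were Sema3a (-5.13), Afap1 (-3.67), F2r (-3.19), Igf2r (-2.58) and Slc38a6 (-2.56). For each of these 10 genes all 3 GL261 libraries lay on one side of all 9 libraries of the other tumors, which the rule for naming them required. Larger differences lay outside the rule, such as Gtsf1 (8.25) and Coro2a (6.41), which had under 3 counts in at least 1 library of the other tumors.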

How the results depend on the processing

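The direction and call of 137 of the 248 gene values named held under every alternative that gave a value. Of the 164 named genes called against naïve brain, 120 kept the call without each library in turn. The count of genes that rose (2555) was 1272 when every sample had to hold 10 counts and 1107 on log2(TPM + 1), and 1709 to 2245 with 1 library left out. The count that fell (1358) was 2273 with DESeq2, 3621 on log2(TPM + 1), 2244 with only the compared groups fitted, 2734 without the third 005 library, and 143 to 889 with 1 library left out, lowest without GL261 replicate 1. Genes higher than in the other tumors (782) numbered 305 with at least 10 counts required, 383 on log2(TPM + 1), 1834 without the third 005 library and 473 to 581 with 1 GL261 library left out, and genes lower (362) numbered 717 with DESeq2, 206 on log2(TPM + 1), 788 without the third 005 library and 88 to 164. The filter on 10 counts leaves 9435 genes to test, among them 9 of the 22 called mitosis genes, and the cause of the other shifts was not tested.

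Replicate numbers did not pair the samples, since deviations of GL261 and naïve libraries with the same number correlated at 0.04, -0.03 and -0.17. With the replicate block, 2310 genes rose and 969 fell, 646 were higher and 258 lower than in the other tumors, and 8 named calls were lost.

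Some genes that were not called took the opposite sign under some settings, given as log2 fold changes. On log2(TPM + 1) the median of all genes lay at -0.51. With at least 10 counts required this held for Calr (-0.020). With library size scaling this held for Calr (-0.043). On log2(TPM + 1) this held for Apoe (-0.42), Calr (-0.76), Cx3cr1 (-0.24), H2-T23 (-0.45), Ifnar1 (-0.29), Ifngr1 (-0.51), Ifngr2 (-0.38), Mdm2 (-0.020), Pcna (-0.012), Pdgfra (-0.23), Pecam1 (-0.63), Spry4 (-0.056), Tmem119 (-0.20), Vegfa (-0.28). With no filter on low counts this held for Calr (-0.021). With only the compared groups fitted this held for Aqp4 (0.043), Ccng1 (0.11), Ido1 (0.12), Mobp (0.034). With the replicate block this held for Ido1 (0.47), Mmp9 (0.000). Without the third 005 library this held for Calr (-0.061). With 1 library left out the sign varied for Aqp4 (-0.37 to 0.077), Calr (-0.090 to 0.15), Ccng1 (-0.24 to 0.39), Cd4 (-1.45 to 1.11), Cldn5 (-0.67 to 0.38), Etv5 (-0.42 to 0.071), Ido1 (-0.54 to 0.71), Igf2 (-0.72 to 0.29), Il6 (-0.025 to 0.51), Junb (-0.54 to 0.24), Mmp9 (-0.22 to 0.25), Mobp (-0.45 to 0.41), Snai2 (-1.03 to 0.30), Tgfb1 (-1.46 to 0.15), Tmem119 (-0.17 to 1.35). Depth limits genes near 3 counts, and DESeq2 gave no adjusted p for some genes, which stay uncounted.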
